A study of Mus musculus with 24 samples.

Results

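The 10 genes described here encode enzymes that make serine, proline, asparagine and cysteine or that run the mitochondrial one-carbon cycle: Phgdh, Psat1, Psph, Shmt2, Mthfd2, Mthfd1l, Asns, Aldh18a1, Pycr1 and Cth. They were taken as the rows of the deposited count tables that carry one of these 10 symbols, and each table held all 10, out of 12759 transcripts listed in at least 1 table. N2a cells, a mouse neuroblastoma line, had been transfected with an empty Cas9 plasmid (ctrl) or with the plasmid and 3 guide RNAs against Eif4e3, which encodes a cap-binding relative of eIF4E (KO). The KO cells were a puromycin-selected population. Both were given 250 nM Torin1, an inhibitor of the kinase mTOR, in DMSO, or DMSO alone, for 2 h, with 3 replicates per condition, each from another passage of the cells. RNA-seq measured mRNA in 12 libraries. Ribo-seq, which counts the mRNA fragments covered by ribosomes (footprints), was used in 11 libraries. The study discarded replicate 2 of ctrl DMSO as an outlier and gave no counts for it, so that footprints in ctrl DMSO rest on 2 libraries. The plasmid, the puromycin selection and the solvent were shared by all 4 conditions.

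Serine is made from a glycolytic intermediate in 3 steps by Phgdh, Psat1 and Psph. Shmt2 then passes a carbon of serine to folate inside mitochondria, where Mthfd2 oxidises it. Mthfd1l releases the carbon as formate, which leaves the mitochondrion for purine and thymidylate synthesis. Asns makes asparagine from aspartate, Aldh18a1 and Pycr1 take glutamate to proline, and Cth makes cysteine from cystathionine. Many of these genes are known targets of the transcription factor ATF4, whose synthesis depends on mTOR in many cell types, which is the background to following them under Torin1.

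The comparison of Torin1 with DMSO asked how mTOR inhibition changes these genes. That of KO with ctrl asked whether their level or their response differs between the lines. The replicates were passages of each line, so loss of Eif4e3 cannot be told apart from other differences between the separately transfected populations. In both lines the mRNA of 9 of the 10 genes was lower in Torin1 on average, by 0.15 to 0.47 on the log2 scale, while that of Mthfd1l changed by 0.01. Of these mRNA differences none passed the test in ctrl cells and 5 did in KO cells, and the latter were lost in a fit of all 4 conditions or without KO Torin1 replicate 2 or 3. The same fit of all 4 conditions called 5 in ctrl cells (Phgdh, Psat1, Psph, Mthfd2 and Cth). There DESeq2 called 3, and so did a fit with the replicate number as a block. Footprints on Phgdh and Mthfd2 fell by about 1 on the log2 scale or more in ctrl and KO cells, while their mRNA changed by less than 0.5. Footprints on Psph were no lower in Torin1 although its mRNA was, so its translational efficiency (TE, footprints per mRNA) was higher, past the test in KO cells. No gene of the 10 passed the test between KO and ctrl cells, in DMSO or in Torin1, except that with the replicate number as a block the mRNA of Asns (adjusted p = 0.027) and Cth (adjusted p = 0.019) passed in Torin1.

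Levels are given as CPM, counts scaled to a common library total, of the counts over coding sequences (CDS), scaled by TMM over all libraries of an assay. Footprint and TE changes are therefore relative to the other transcripts, and a loss shared by all of them would not show. The study saw a smaller heavy polysome fraction in Torin1 in both lines. RNA-seq libraries held 17047795 to 28910907 counts and ribo-seq libraries 669010 to 5284909, the lowest being ctrl DMSO replicate 3. In RNA-seq, Eif4e3 stood at 18.2, 12.0 and 18.2 CPM in ctrl DMSO and at 14.1, 17.2 and 12.5 in ctrl Torin1, against 3.67, 2.88 and 5.00 in KO DMSO and 5.04, 4.49 and 4.68 in KO Torin1. Its footprints, at 4 to 18 counts per library in KO cells and 11 to 92 in ctrl cells, were also lower in KO cells, with a log2 difference of -2.69 in DMSO (edgeR quasi-likelihood test, adjusted p = 0.0011) and of -1.93 in Torin1 (adjusted p = 6.2e-04). Eif4e3 was thus lower in every KO library than in any ctrl library, as labelled. Of 13 markers of the sympathoadrenal line in a list, 10 were listed in all tables of both assays, the neurofilament genes Nefl and Nefm were not, and Th, the defining enzyme of dopamine synthesis, had a median of 5.65 CPM in RNA-seq. Of 8 markers of fibroblasts, immune and epithelial cells 3 were listed in RNA-seq, none with a median over 10 CPM, and their summed level was 4.88 to 8.78 CPM in all 12 libraries, with overlapping ranges in the 4 conditions. In ribo-seq 1 of the 8 was listed, at 0 to 4.32 CPM in ctrl DMSO and 5.68 to 7.40 in ctrl Torin1, and its part in the results was not tested. In bulk samples fewer cells of a type and less RNA per cell cannot be told apart.

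The 10 genes were abundant. Together they took 0.639% of RNA-seq counts in ctrl DMSO (SD 0.0475, n = 3) and 0.548% in ctrl Torin1 (SD 0.00634, n = 3), and 0.602% and 0.530% in KO cells. Per kilobase of CDS, Asns mRNA was the highest of the 10 in every condition, at 1285 CPM per kb in ctrl DMSO, followed by Shmt2, Psat1, Phgdh and Mthfd2, and Cth was the lowest at 57.2. That order of mRNA was the same in all 4 conditions. Shmt2 and Psat1, next to each other, overlapped in their mean ± SD in ctrl DMSO, KO DMSO and KO Torin1, as did Phgdh and Mthfd2 in ctrl DMSO and Pycr1 and Cth in KO DMSO. The order of footprints differed from that of mRNA: Psat1 was the highest in every condition, at 1039.5 CPM per kb in ctrl DMSO, and Psph, the sixth in mRNA, was the third in KO Torin1. Psat1 and Asns overlapped in footprints in all conditions but ctrl DMSO. In footprints 3 to 5 of the 9 neighbouring pairs overlapped in each condition. Phgdh went from 527 CPM per kb in footprints in ctrl DMSO, level with Shmt2 at 530, to 244 in ctrl Torin1, when Shmt2 was at 494.

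**Figure D1:**
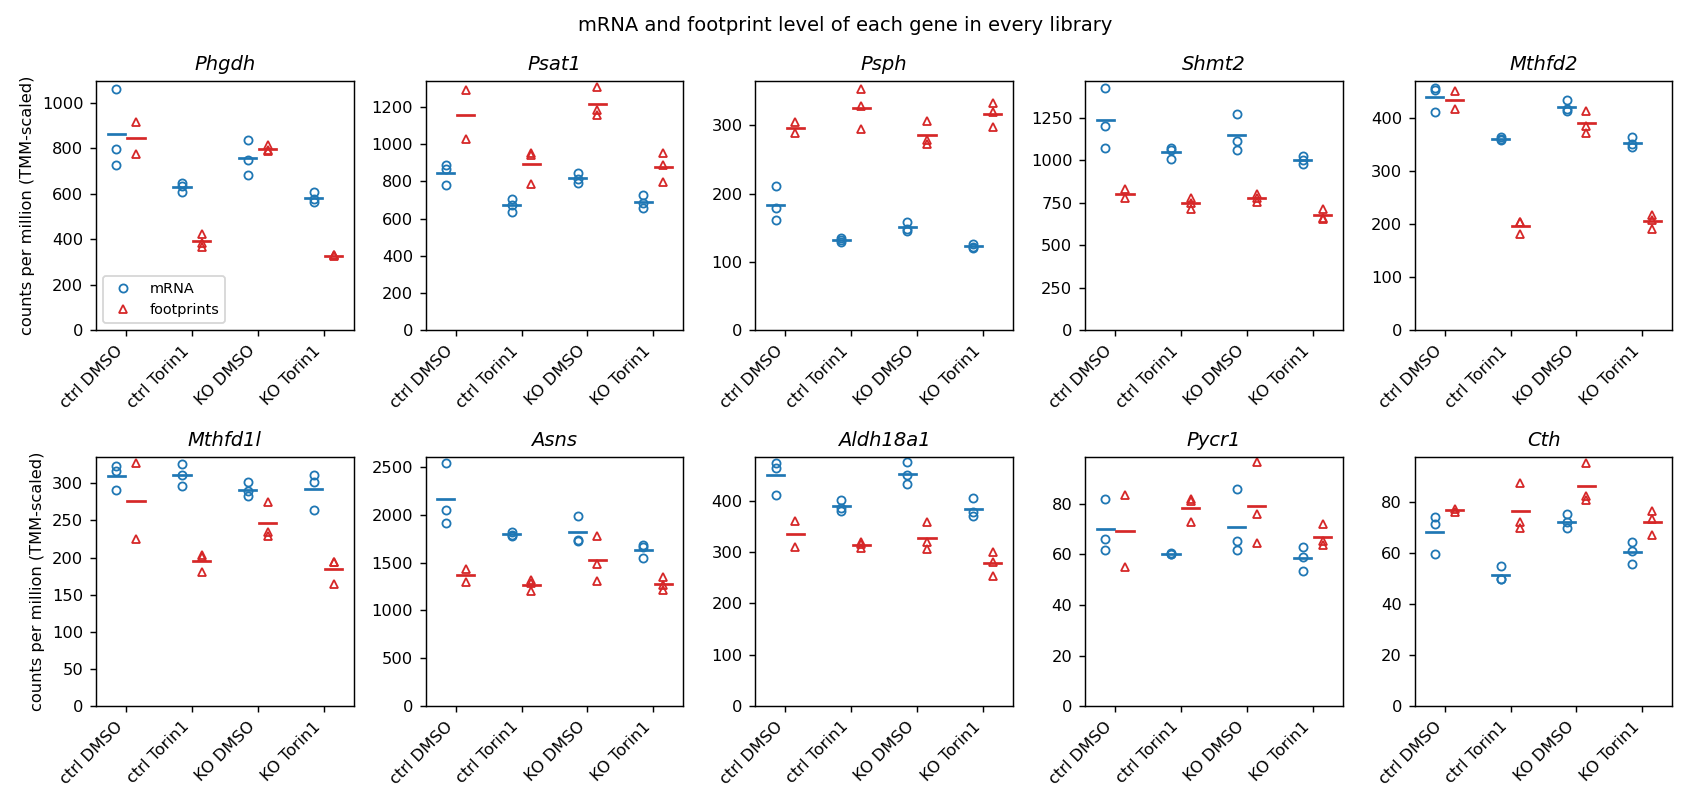
Level of each of the 10 genes in every library, in TMM-scaled CPM, for mRNA (blue circles, 3 libraries per condition) and footprints (red triangles, 2 libraries in ctrl DMSO and 3 elsewhere). Short lines are the means of a condition. Footprints on Phgdh and Mthfd2 in Torin1 lie below all DMSO libraries of both lines, and those on Psph do not.

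In the serine branch, Phgdh, the first and committed enzyme, showed the largest loss of footprints of the 10 in KO cells. The gene lies at chr3:98313170-98339990 (GRCm38, minus strand, 12 exons). Its footprints were 775 and 913 CPM in ctrl DMSO and 382, 366 and 423 in ctrl Torin1, and 815, 786 and 791 CPM in KO DMSO against 326, 329 and 330 in KO Torin1. In both lines every Torin1 library was far below any DMSO library. The change was -1.10 (SE 0.14) on the log2 scale in ctrl cells (2.15-fold lower, adjusted p = 1.6e-05) and -1.30 (SE 0.10) in KO cells (2.46-fold lower, adjusted p = 4.6e-12). Among all transcripts tested, 5.21% in ctrl and 5.74% in KO cells had a lower log2 change than Phgdh. Its mRNA was 728, 1058 and 799 CPM in ctrl DMSO and 632, 610 and 646 in ctrl Torin1, and 748, 836 and 681 CPM in KO DMSO and 606, 575 and 563 in KO Torin1. The groups did not overlap, but the DMSO libraries were spread more widely than the Torin1 libraries. Among the ctrl DMSO libraries, replicate 2 held the highest mRNA value for 7 of the 10 genes. The mRNA change of Phgdh was -0.45 (SE 0.14) in ctrl cells, which did not pass (adjusted p = 0.11, or 0.048 with the replicate number as a block), and -0.37 (SE 0.08) in KO cells (adjusted p = 0.013).

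Psat1, which makes phosphoserine, lost footprints to a lesser degree. It had 1289 and 1025 CPM in ctrl DMSO and 954, 942 and 785 in ctrl Torin1, and 1305, 1153 and 1185 CPM in KO DMSO and 952, 887 and 799 in KO Torin1. The groups did not overlap in either line, though the 2 ctrl DMSO libraries were far apart. The log2 change was -0.48 (SE 0.11, adjusted p = 3.9e-04) in KO cells and -0.38 (SE 0.15, adjusted p = 0.092) in ctrl cells, which passed with the block (adjusted p = 0.011). Its mRNA change was -0.24 (adjusted p = 0.033) in KO cells and -0.33 (adjusted p = 0.12) in ctrl cells.

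Psph, the phosphatase that releases serine, behaved differently from the enzymes before it. It lies at chr5:129765558-129787449 on the minus strand. Its footprints were 304 and 289 CPM in ctrl DMSO and 295, 353 and 327 in ctrl Torin1, and 307, 272 and 278 CPM in KO DMSO and 319, 333 and 297 in KO Torin1. These groups overlapped, with log2 changes of 0.13 in both lines (95% interval -0.15 to 0.42 in ctrl and -0.08 to 0.34 in KO cells). Its mRNA, in contrast, was 179, 211 and 161 CPM in ctrl DMSO and 132, 130 and 134 in ctrl Torin1, and 148, 159 and 146 CPM in KO DMSO and 127, 122 and 121 in KO Torin1. These mRNA groups did not overlap. The mRNA change was -0.29 (SE 0.07, adjusted p = 0.020) in KO cells and -0.47 (SE 0.12, adjusted p = 0.057) in ctrl cells, where it passed with the block (adjusted p = 0.012).

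In the mitochondrial one-carbon cycle, Mthfd2, a dehydrogenase and cyclohydrolase of folate encoded at chr6:83305691-83317606 (minus strand), lost footprints as Phgdh did. Its footprints were 451 and 417 CPM in ctrl DMSO and 205, 182 and 205 in ctrl Torin1, and 413, 385 and 371 CPM in KO DMSO against 207, 190 and 218 in KO Torin1. No Torin1 library came near a DMSO library. The log2 change was -1.14 (SE 0.14) in ctrl cells (2.21-fold lower, adjusted p = 1.0e-05) and -0.95 (SE 0.11) in KO cells (1.93-fold lower, adjusted p = 2.4e-08). Its mRNA was 452, 455 and 410 CPM in ctrl DMSO, 359, 364 and 360 in ctrl Torin1, 416, 434 and 413 in KO DMSO and 364, 351 and 345 in KO Torin1. The groups were apart, but the mRNA change was small, at -0.25 (SE 0.06, adjusted p = 0.023) in KO cells and -0.28 (SE 0.10, adjusted p = 0.14) in ctrl cells.

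Mthfd1l, which makes formate from formyl-folate, was the gene whose mRNA was the same in DMSO and Torin1 within error. It had 291, 317 and 323 CPM of mRNA in ctrl DMSO and 326, 297 and 311 in ctrl Torin1, and the log2 difference of 0.01 had a 95% interval of -0.20 to 0.21 in ctrl cells and of -0.13 to 0.15 in KO cells. Its footprints were 225 and 328 CPM in ctrl DMSO, 180, 204 and 201 in ctrl Torin1, 229, 275 and 234 in KO DMSO and 195, 165 and 194 in KO Torin1. The Torin1 libraries lay below all DMSO libraries in both lines. The footprint change was -0.44 (SE 0.12, adjusted p = 0.0032) in KO cells and -0.46 (SE 0.16, adjusted p = 0.067) in ctrl cells, where it passed with the block (adjusted p = 0.0043).

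Shmt2, the mitochondrial serine hydroxymethyltransferase upstream of both, changed little. Its footprints were 830 and 775 CPM in ctrl DMSO and 779, 751 and 716 in ctrl Torin1, which overlapped, and 753, 804 and 780 CPM in KO DMSO and 657, 711 and 660 in KO Torin1, which did not. The log2 change was -0.10 (SE 0.13, adjusted p = 0.66) in ctrl cells and -0.22 (SE 0.10, adjusted p = 0.077) in KO cells, and the latter passed with the block (adjusted p = 0.042). Its mRNA changes of -0.24 and -0.19 did not pass in either line (adjusted p = 0.28 and 0.12).

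Asns, the asparagine synthetase, had 1429 and 1302 CPM of footprints in ctrl DMSO and 1203, 1318 and 1291 in ctrl Torin1, and 1310.0, 1485 and 1773 CPM in KO DMSO and 1211, 1266 and 1353 in KO Torin1. The groups overlapped in both lines. The log2 change of -0.27 (SE 0.11) in KO cells was just past the threshold (adjusted p = 0.044) and held in 2 of 13 alternative settings, DESeq2 giving an adjusted p of 0.075. The first base of a TGATGNAA match, the letters of the site that ATF4 binds with its partners, stood 23 bases before its RefSeq start site. In GENCODE M21, from which leader lengths are taken, the transcript starts at chr6:7693254, so that the stretch lies inside its leader. The stretch is chr6:7693214-7693243 (GRCm38.p6, shown on the gene's strand, the minus strand, with the match in capitals), and it is printed with that of Pycr1 because these were the only genes of the 9 with a promoter sequence that held the motif on either strand in the 250 bases before and 50 after the start.

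Asns: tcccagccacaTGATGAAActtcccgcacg

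Pycr1: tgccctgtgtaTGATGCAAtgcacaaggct

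The Pycr1 stretch lies at chr11:120643833-120643862, also on the minus strand, with the match beginning 103 bases before the start. The longer letters TGATGCAAT occurred in Pycr1 alone of the 9. Of all 32851 RefSeq promoter sequences of the same length, 3.97% held TGATGNAA and 0.192% held TGATGCAAT. Counted by gene, as the 9 were, 2.72% and 0.135% of 9624 genes of the RNA-seq data held them. The mRNA of Asns changed by -0.27 in ctrl and -0.15 in KO cells (adjusted p = 0.24 and 0.23) and that of Pycr1 by -0.21 and -0.27 (adjusted p = 0.34 and 0.17), and none of these passed. With the block, Pycr1 mRNA passed in KO cells (adjusted p = 0.040).

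In the proline branch, Aldh18a1, the first enzyme from glutamate, had footprints of 310 and 360 CPM in ctrl DMSO and 318, 316 and 307 in ctrl Torin1, and of 306, 319 and 358 CPM in KO DMSO and 252, 280 and 300 in KO Torin1. The groups overlapped in ctrl cells and did not in KO cells, where the log2 change was -0.26 (SE 0.11, adjusted p = 0.060, or 0.025 with the block). Its mRNA change was -0.23 (SE 0.06, adjusted p = 0.043) in KO cells and -0.21 (SE 0.10, adjusted p = 0.26) in ctrl cells. Pycr1, the last enzyme of the branch, was among the least abundant, with 55.1 to 96.4 CPM of footprints over all 11 libraries and overlapping groups in both lines (log2 changes of 0.07 and -0.24). Cth, the cystathionine lyase, had 67.0 to 95.5 CPM of footprints over all 11 libraries, and its log2 changes of -0.02 in ctrl and -0.28 in KO cells did not pass (adjusted p = 0.96 and 0.095). The mRNA of Cth was 74.3, 71.2 and 59.8 CPM in ctrl DMSO and 49.8 to 54.8 in ctrl Torin1, a log2 change of -0.41 (SE 0.13, adjusted p = 0.11), and -0.26 (SE 0.08, adjusted p = 0.061) in KO cells. With the block it was past the threshold in ctrl cells (adjusted p = 0.0498) and in KO cells (adjusted p = 0.032).

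Counted over the 10 genes, 5 mRNAs passed as lower in KO cells (Phgdh, Psat1, Psph, Mthfd2 and Aldh18a1) and none as higher, where 9.97% of all 11004 transcripts tested were called, 3.74% as lower and 6.23% as higher. In ctrl cells edgeR called none of the 10, with 5 at an unadjusted p under 0.05 and 3 called by DESeq2, where 2.73% of 10958 transcripts were called, 0.675% as lower and 2.05% as higher. The mRNA of 9 genes in ctrl cells, and of 8 in KO cells, was lower in every Torin1 library than in any DMSO library, which was so for 14.7% and 15.5% of all transcripts. The 10 had a median log2 mRNA change of -0.27 (ctrl) and -0.25 (KO), where the median over all transcripts was 0.00 in both. The calls on mRNA depended on the libraries: with the block 3 genes passed in ctrl cells, with all 4 conditions in one fit 5 passed in ctrl cells but 0 in KO cells. Leaving out ctrl DMSO replicate 3 gave 4 calls in ctrl cells. Without KO DMSO replicate 1 or KO Torin1 replicate 1 the only call left in KO cells was Phgdh, and without KO Torin1 replicate 2 or 3 none was left.

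In footprints, 2 of the 10 passed as lower in ctrl cells (Phgdh and Mthfd2), where 9.93% of 10693 transcripts did (15.6% in either direction), and 5 in KO cells (Phgdh, Psat1, Mthfd2, Mthfd1l and Asns), where 22.1% of 10822 did (40.6% in either direction). None passed as higher, against 5.69% and 18.5% of all transcripts. Every Torin1 library lay below every DMSO library for 4 of the 10 in ctrl cells and 7 in KO cells, against 22.0% and 25.0% of all transcripts. The 10 had a median log2 footprint change of -0.10 (ctrl) and -0.27 (KO), where the median over all transcripts was 0.02 in both. TMM set the level against which these changes were read. With library size as the sole scaling, the all-transcript median moved up by 0.21 in ctrl cells and by 0.25 in KO cells, the share of called transcripts that were lower went from 63.6% to 28.8% in ctrl and from 54.5% to 28.9% in KO cells, and in KO cells Psat1 (-0.24), Mthfd1l (-0.19) and Asns (-0.02) no longer passed, though relative to that median they were as before, while Psph (0.38, adjusted p = 0.0044) passed as higher. Phgdh and Mthfd2 passed under every setting in both lines. With the block, 4 genes passed in ctrl and 7 in KO cells.

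**Figure D2:**
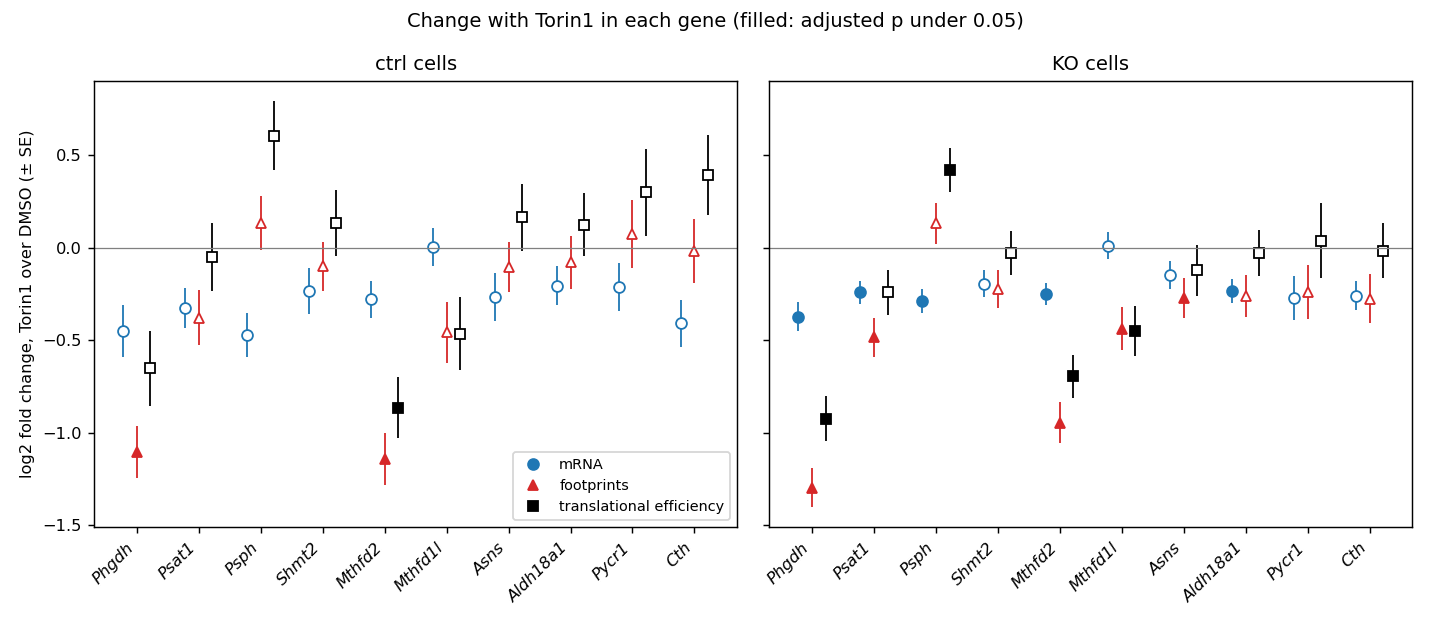
Log2 fold change of Torin1 over DMSO for mRNA (circles), footprints (triangles) and translational efficiency (squares) in ctrl and KO cells, with the standard error of the edgeR fit as bars and filled symbols where the adjusted p was under 0.05. Footprint changes of Phgdh and Mthfd2 lie near -1 in both lines, and the efficiency of Psph lies above 0.

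TE was then compared, as the interaction of assay and treatment in one model of both kinds of library. Taken as footprint CPM over the mean mRNA CPM of the condition, TE of Phgdh was 0.980 ± 0.113 (SD, n = 2) in ctrl DMSO and 0.621 ± 0.0468 (n = 3) in ctrl Torin1, and 1.06 ± 0.0202 and 0.565 ± 0.00351 in KO cells (n = 3 each). That of Mthfd2 was 0.989 ± 0.0554 and 0.546 ± 0.0368 in ctrl cells and 0.926 ± 0.0505 and 0.580 ± 0.0397 in KO cells. Both genes thus went from a ratio of about 1 in DMSO to about 0.6 in Torin1. The median ratio over all transcripts was 0.929 in ctrl DMSO and 0.908 in ctrl Torin1. The ratio is relative, as each assay is scaled by itself, and is not a number of ribosomes per mRNA. In KO cells the log2 TE change was -0.92 (SE 0.12, adjusted p = 1.9e-06) for Phgdh and -0.70 (SE 0.12, adjusted p = 7.7e-05) for Mthfd2. In ctrl cells Mthfd2 passed at -0.86 (SE 0.17, adjusted p = 0.0021), and Phgdh at -0.65 (SE 0.20) did not (adjusted p = 0.069). Phgdh did pass without the RNA-seq library ctrl DMSO replicate 2 (-0.83, adjusted p = 0.0017) and with all 4 conditions in one fit (-0.66, adjusted p = 0.0087). With the block or limma-voom it did not.

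Psph had the highest TE of the 10 in every condition. It was 1.61 ± 0.0599 (SD, n = 2) in ctrl DMSO and 2.46 ± 0.219 (n = 3) in ctrl Torin1, and 1.89 ± 0.122 and 2.57 ± 0.147 in KO cells (n = 3 each). The groups were apart in both lines. The log2 TE change of Psph was 0.42 (SE 0.12, adjusted p = 0.0105) in KO cells and 0.60 (SE 0.19, adjusted p = 0.068) in ctrl cells, where DESeq2 called it (adjusted p = 0.032). In ctrl cells it also passed with library size alone (adjusted p = 0.011), with all 4 conditions in one fit (adjusted p = 0.0088) and without the RNA-seq library ctrl DMSO replicate 3 (adjusted p = 0.020). With the block or limma-voom it did not. Mthfd1l went the other way, from 0.890 ± 0.234 (n = 2) to 0.627 ± 0.0412 in ctrl and from 0.845 ± 0.0879 to 0.631 ± 0.0589 in KO cells, with a log2 TE change of -0.45 (SE 0.13, adjusted p = 0.014) in KO cells that was lost with library size alone (-0.20, adjusted p = 0.24), with all 4 conditions in one fit (adjusted p = 0.051), and without the ribo-seq library KO DMSO replicate 2 (adjusted p = 0.072) or KO Torin1 replicate 2 (adjusted p = 0.058). In ctrl cells Mthfd1l passed only without the ribo-seq library ctrl DMSO replicate 1 (-0.75, adjusted p = 0.041). For Psat1, Shmt2, Asns, Aldh18a1, Pycr1 and Cth the log2 TE changes ran from -0.24 to 0.04 in KO cells and from -0.05 to 0.39 in ctrl cells, and none passed.

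In all, TE of 3 of the 10 was called lower in KO cells, where 17.8% of 10535 transcripts were, and that of 1 was called higher, where 10.6% were (28.4% in either direction). In ctrl cells 1 was called lower, where 4.29% of 10432 were, and none higher, where 0.383% were (4.68% in either direction). A share near the background is not particular to these genes. With library size alone the all-transcript median of the log2 TE change moved up by 0.17 (ctrl) and 0.25 (KO), and the share of called transcripts with lower TE went from 91.8% to 64.0% and from 62.6% to 30.6%. Under that setting Mthfd2 (-0.45, adjusted p = 0.0036), Phgdh (-0.68, adjusted p = 6.9e-05) and Psph (0.67, adjusted p = 1.4e-04) kept their calls in KO cells.

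**Figure D3:**
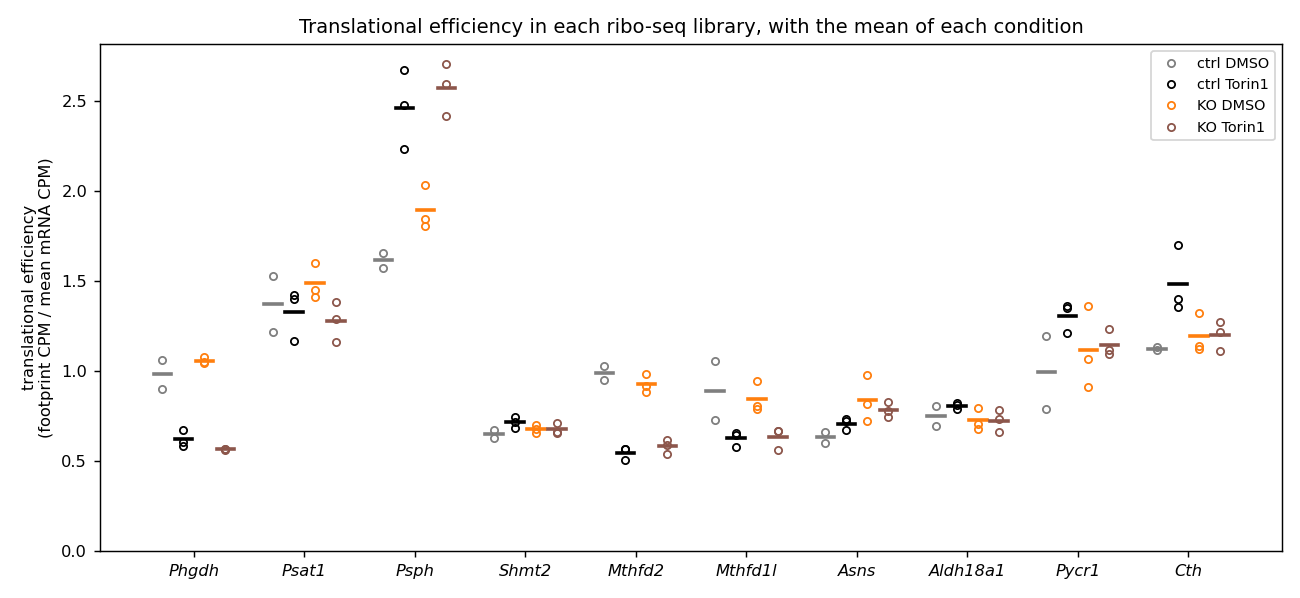
Translational efficiency of each gene in every ribo-seq library, as its footprint CPM over the mean mRNA CPM of that condition (no unit), with the mean of each condition as a line. Psph is highest and its mean goes from 1.61 to 2.46 in ctrl cells, while those of Phgdh and Mthfd2 go from about 1 to about 0.6.

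The 5′ leaders of the transcripts, which the choice of the genes did not use, ran from 47 nt in Cth to 822 nt in Psph, with a median of 147 nt against 171 nt for the 12703 transcripts of the tables that matched the annotation. Psph, with the longest leader, is longer there than 97.9% of transcripts, and Mthfd2 had 77 nt. Phgdh, with the largest TE loss in KO cells, had 158 nt, near the median. Cth, with the shortest leader, had a mean TE of 1.12 in ctrl DMSO and 1.48 in ctrl Torin1. In KO cells its TE was 1.19 and 1.20. Leader length and log2 TE change had a Spearman rho of 0.40 in ctrl and 0.47 in KO cells across the 10 genes. Across 10395 and 10498 transcripts rho was 0.17 and 0.26. These are descriptions across genes, which are not replicates. A TOP-like start, a C followed by at least 4 pyrimidines at the RefSeq start site as in ribosomal protein mRNAs, was present in Shmt2 alone of the 9 with a promoter sequence. It was found in 3.07% of the genes in the RNA-seq tables, and in 20.7% of the Rpl and Rps genes, so that this window misses many true TOP starts. No other annotated gene overlapped the CDS of any of the 10.

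KO cells were then compared with ctrl cells. In DMSO the log2 differences of the 10 genes ran from -0.28 to 0.09 in mRNA, from -0.16 to 0.16 in footprints and from -0.12 to 0.39 in TE, and edgeR called none of them. The number at an unadjusted p under 0.05 was 1 for mRNA (Psph), 0 for footprints and 0 for TE, DESeq2 called none, and the shares of all transcripts called were 0.0183%, 0.0279% and 0%. In Torin1 the differences ran from -0.13 to 0.23 in mRNA, from -0.25 to 0.06 in footprints and from -0.29 to 0.15 in TE, again with no call by either tool, where edgeR called 1.96%, 6.03% and 2.85% of all transcripts. Unadjusted, 3 passed for mRNA, 1 for footprints and 0 for TE. The footprint difference was that of Phgdh, at -0.25 (95% interval -0.45 to -0.05, adjusted p = 0.14), since its footprints were 366 to 423 CPM in ctrl Torin1 and 326 to 330 in KO Torin1. Footprints in KO Torin1 lay below all ctrl Torin1 libraries for 4 of the 10 (Phgdh, Shmt2, Aldh18a1 and Pycr1) and above them for 0, against 12.8% and 11.5% of all transcripts. For mRNA in Torin1 the KO libraries lay below for 3 (Phgdh, Psph and Asns) and above for 1 (Cth), against 11.3% and 10.6%. In DMSO, mRNA lay below for 1 (Psph) and above for 0, against 6.71% and 4.72%, and footprints lay below for 1 (Mthfd2) and above for 1 (Cth), against 12.8% and 13.3%. With the block, Asns mRNA was called lower in KO cells in Torin1 (-0.13, adjusted p = 0.027) and Cth mRNA higher (0.23, adjusted p = 0.019).

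The response to Torin1 was not shown to differ between the lines. In the interaction of genotype and treatment, edgeR called 0 of the 10 genes for mRNA, footprints or TE, none was under 0.05 before adjustment, and DESeq2 called none, while 0%, 0.113% and 0% of all transcripts were called. For footprints the difference between the lines (KO minus ctrl, log2) was -0.18 for Phgdh (95% interval -0.50 to 0.15) and 0.22 for Mthfd2 (-0.12 to 0.56). For TE it was -0.24 for Phgdh (-0.68 to 0.20), 0.20 for Mthfd2 (-0.15 to 0.55) and -0.15 for Psph (-0.55 to 0.24). These intervals leave room for differences of some size in either direction.

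Neighbouring enzymes from lists chosen by pathway were set beside the 10. Of other serine, glycine, folate and methionine cycle genes, footprints were called lower for 2 and higher for 2 of 25 tested in ctrl cells (median log2 change 0.04), and lower for 4 and higher for 3 of 24 in KO cells (median -0.08). The lowest was Ahcy, which splits S-adenosylhomocysteine, at -1.82 in ctrl (adjusted p = 3.6e-07) and -2.14 in KO cells (adjusted p = 1.4e-13), while its TE changed by -1.67 and -2.09 and both passed. Sfxn1, the mitochondrial serine transporter, was lower (-0.73 and -0.79, adjusted p = 0.015 and 4.4e-05), and Shmt1, the cytosolic counterpart of Shmt2, was higher (0.50 and 0.64, adjusted p = 0.039 and 7.6e-05). Of other proline, glutamine, asparagine and aspartate genes, footprints were lower for 6 of 10 in ctrl (median -0.62) and 8 of 10 in KO cells (median -0.64), with Got2, the mitochondrial aspartate aminotransferase, at -0.71 and -1.16. Of 11 purine synthesis genes 1 was lower in ctrl (median -0.14) and 5 in KO cells (median -0.28), and Impdh2, an enzyme of guanine nucleotide synthesis, was at -0.85 in both. Of all transcripts, 9.93% were called lower and 5.69% higher in ctrl cells, and 22.1% and 18.5% in KO cells. In ctrl cells DESeq2 called 1, 3 and 1 genes of these lists, in the order given, and in KO cells 7, 6 and 4. In ctrl cells DESeq2 thus called at most 1 of Ahcy, Sfxn1 and Shmt1.

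In the mRNA of the one-carbon list, 2 were lower and 1 was higher of 26 in KO cells, and edgeR called none in ctrl cells (median log2 change -0.13, 7 at an unadjusted p under 0.05, 1 by DESeq2). Of the proline and asparagine list, Gpt2, an alanine aminotransferase of mitochondria, was lower in ctrl (-0.48) and KO cells (-0.53), and Got1 was lower in KO cells (-0.36). Of the purine list edgeR and DESeq2 called none in either line, with 0 and 2 at an unadjusted p under 0.05. Of all transcripts, edgeR called 2.73% in ctrl and 9.97% in KO cells.

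The ATF4 list, of Atf4 and targets outside these pathways, showed a larger median loss of mRNA than the 10 genes. Of 13 tested, mRNA was called lower for 7 in ctrl cells (median log2 change -0.80) and for 9 in KO cells (median -0.60). Of all transcripts, 0.675% in ctrl and 3.74% in KO cells were called lower. Chac1, which degrades glutathione, was at -3.99 and -3.84. Sesn2, a leucine-binding inhibitor of mTORC1, was at -3.91 and -3.62, and Trib3, a pseudokinase, at -2.66 and -2.45. Atf4 mRNA was 1668, 1756 and 1390.3 CPM in ctrl DMSO and 703, 713 and 700 in ctrl Torin1, a log2 change of -1.18 (adjusted p = 1.7e-04), and it was at -1.02 in KO cells (adjusted p = 2.5e-06). Footprints on the Atf4 CDS were 431 and 431 CPM in ctrl DMSO and 135, 123 and 116 in ctrl Torin1, a change of -1.79 (adjusted p = 3.1e-08), and -1.52 in KO cells (adjusted p = 3.1e-12). Of the ATF4 list, footprints were lower for 7 of 13 in both lines and higher for 2 in KO cells, and TE was lower for 1 and higher for 2 in ctrl cells and lower for 3 and higher for 7 in KO cells. Among all transcripts in ctrl cells, footprints were called lower for 9.93%, and TE lower for 4.29% and higher for 0.383%. In KO cells footprints were called lower for 22.1% and higher for 18.5%, and TE lower for 17.8% and higher for 10.6%. The 10 synthesis genes thus had mRNA changes of at most 0.47 beside mRNA changes of nearly 4 in Chac1 and Sesn2, the largest of the list, at the same time point. Other genes of the ATF4 list also changed by less than 0.47 in mRNA. In ctrl cells these were Cebpg (-0.27), Slc7a11 (-0.12) and Nupr1 (-0.09). In KO cells they were Slc7a11 (-0.44), Ddit3 (-0.37), Slc3a2 (-0.33), Atf5 (-0.29), Cebpg (-0.14) and Nupr1 (-0.08).

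**Figure D4:**
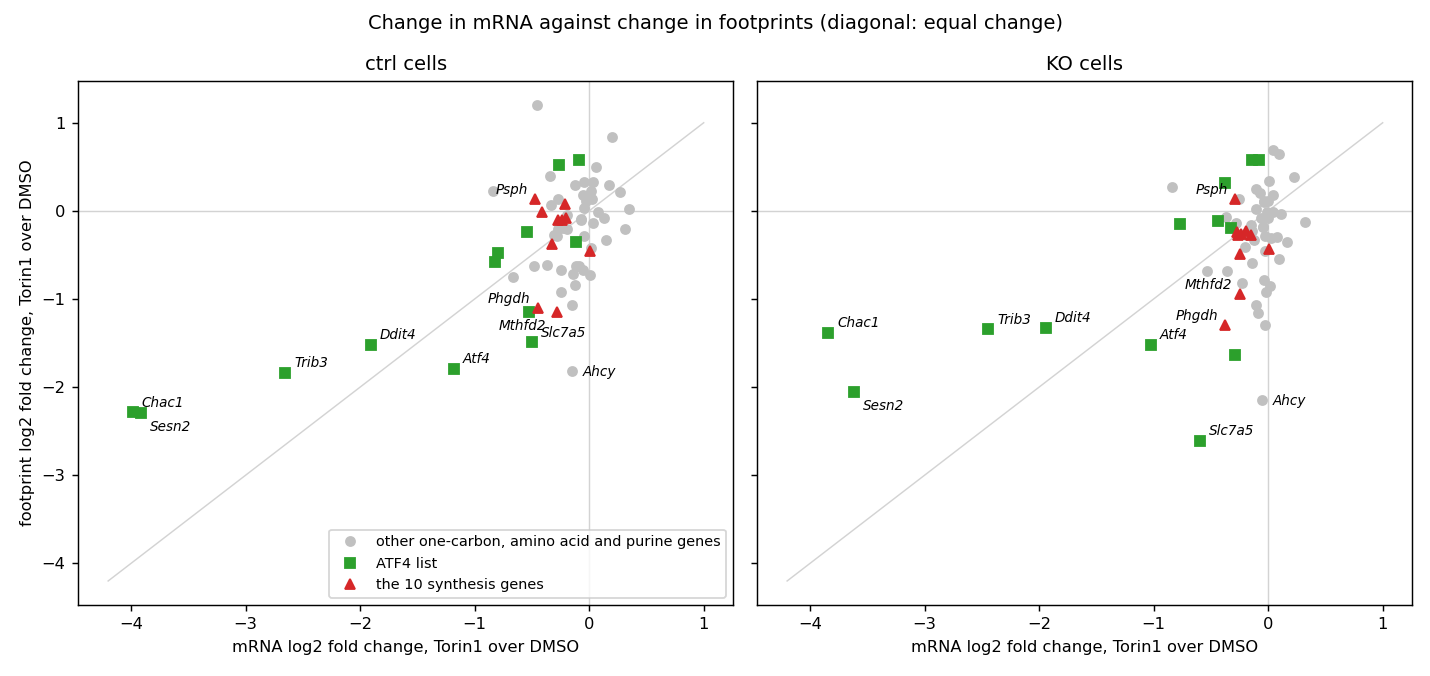
Log2 change of mRNA (x) against that of footprints (y) in Torin1 over DMSO, for the 10 synthesis genes (triangles), the ATF4 list (squares) and the other one-carbon, amino acid and purine genes (circles), in ctrl and KO cells, with equal change on the diagonal. Phgdh, Mthfd2 and Ahcy lie well below the diagonal, with mRNA changes above -0.5, and Chac1, Sesn2 and Trib3 lie above it.

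Over the 23 libraries of both assays, centred within each assay, the transcripts whose log2(CPM + 1) was most like the mean standardised profile of the 10 genes were Ndufb10 (Pearson r = 0.929), Arhgdia (0.919), Tuba1c (0.919), Grwd1 (0.916) and Snrpd2 (0.915), among 9834. Of the 10 genes themselves, Phgdh (0.884) and Shmt2 (0.880) were closest to that mean and Psph (0.471) was the farthest. The points share libraries and the treatment, and this is a description.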

How the data were processed

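RNA-seq and ribo-seq libraries of N2a ctrl and KO cells in DMSO or Torin1 were analysed, 12 and 11 in number. The authors trimmed reads with cutadapt and aligned them with HISAT2 (mm10) and bowtie2 (1 canonical Ensembl transcript per gene). They deposited raw counts per CDS in 8 tables, 1 per assay and pair of conditions (P-sites from riboWaltz for ribo-seq). Tool versions are not given in the sources used here. The authors' fold changes and p-values in those tables, and 2 tables of TE from RiboDiff, were not used. One RNA-seq table, which compares the genotypes under DMSO, labels 2 of its columns for each genotype with the same replicate number. Those columns entered without a number, and the block took the counts from other tables, which held 0 differing values among 217847 compared.

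Transcripts were tested if every replicate of 1 condition or more had a CPM above 1, with edgeR 4.0.16 (TMM, quasi-likelihood F-test) in R 4.3.3. TE was tested as the interaction of assay and condition, scaled within assay. P-values were adjusted by Benjamini-Hochberg over all transcripts tested, and 0.05 was the threshold. SE is the log2 fold change over the root of F, and intervals (95%) rest on a normal quantile. Alternatives were RLE scaling, library size alone, no CPM filter, CPM over 5, DESeq2 1.42.0, limma-voom 3.58.1 (TE), a replicate block, all 4 conditions in one fit, and each library left out in turn. The fits were also run on simulated counts. Those had independent libraries and changes larger than most of those in the 10 genes. They thus do not cover small changes or paired passages. A replicate number marks a passage of the cells per the labels, so that same-numbered samples are paired. The main fit had no block, as none is stated in the study's methods, so its p-values and intervals leave this pairing out. The fit with the block is given where it changed a call. With the block, 3 of the 10 passed for mRNA in ctrl and 7 in KO cells, and 4 and 7 for footprints. Same-numbered samples' deviations from their condition mean correlated at -0.0422 to 0.733 in RNA-seq and -0.0381 to 0.143 in ribo-seq. For differently numbered samples the ranges were -0.586 to 0.429 and -0.143 to 0.122, so that the ranges overlap in both assays. P-values thus measure the spread between passages of the same cells.

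Coordinates, CDS and leader lengths are from GENCODE M21 (GRCm38) and promoter sequences from RefSeq (GRCm38.p6), which held 9 of the 10 genes. All 10 genes are described. Of list genes, at most 3 per list and comparison with the smallest adjusted p among those called are named, and Atf4 always, and some are given for both lines. Genes of the ATF4 list with an mRNA change under 0.47 are named as well. The genes and lists were chosen with earlier results of these data known.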

Additional observations from a re-analysis of the deposited data

Results flagged for a closer look

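Slc7a5, the light chain of an amino acid transporter and a member of the ATF4 list, was flagged because its footprint response to Torin1 differed between the lines in the interaction of genotype and treatment (KO minus ctrl, log2 difference -1.10, SE 0.18, edgeR adjusted p = 0.0057). The log2 change was -1.49 in ctrl cells and -2.61 in KO cells.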

How the results depend on the processing

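Counted as pairs of a single-gene result and an alternative setting, 211 called pairs kept the call and 42 lost it, and 2090 uncalled pairs stayed so while 37 became called. No direction of a called result reversed. The number of the 10 genes called for mRNA in ctrl cells (0) was 3 with DESeq2, 3 with the replicate block and 5 with all 4 conditions in one fit, and 0 to 4 with 1 library left out. For mRNA in KO cells (5) it was 0 with all 4 conditions in one fit and 0 to 5 with 1 library left out. For footprints in ctrl cells (2) it was 4 with the block and 4 in the fit of all conditions, and in KO cells (5) it was 3 with library size alone. For TE in ctrl cells (1) it was 2 with library size alone, 2 with DESeq2 and 3 in the fit of all conditions, and 1 to 2 with 1 library left out. For mRNA between KO and ctrl in Torin1 (0) it was 2 with the block. The motif count (2) was 1 with TGATGCAAT. The block changed no other call beyond those given in the report. Over all transcripts, calls for mRNA in ctrl cells (299) were 723 with DESeq2, 1328 with the block and 1221 with all conditions, those in KO cells (1097) were 1797 with the block and 558 with all conditions, and those for footprints in ctrl cells (1670) were 951 with DESeq2. For KO against ctrl mRNA the block gave 866 calls in DMSO (2 without it) and 1041 in Torin1 (216 without it), DESeq2 gave 21 and 342, and all conditions together 19 and 6. Footprints of KO against ctrl in Torin1 (651) gave 422 with DESeq2 and 411 with all conditions, TE in ctrl cells (488) gave 854 with all conditions, and TE of KO against ctrl in Torin1 (299) gave 587 with DESeq2, 541 with the block, 73 with all conditions and 154 with limma-voom. The interaction for footprints (12) gave 39 with DESeq2 and 35 with the block, and that for TE (0) gave 18 with DESeq2. For KO against ctrl mRNA in Torin1, the share of calls that were lower went from 48.6% to 36.0% with library size alone. With 1 library left out, calls over all transcripts ranged over 114 to 1465 (mRNA, ctrl), 438 to 1465 (mRNA, KO), 0 to 10 and 6 to 174 (mRNA, KO against ctrl in DMSO and Torin1), 725 to 2291 (footprints, ctrl), 3527 to 4186 (footprints, KO), 343 to 512 (footprints, KO against ctrl in Torin1), 0 to 50 (footprint interaction), 316 to 820 (TE, ctrl), 2479 to 3515 (TE, KO) and 178 to 312 (TE, KO against ctrl in Torin1), so the background shares move with single libraries. The cause was not tested. Footprints in ctrl DMSO rest on 2 libraries, 1 of them with 669010 counts, which limits what the ctrl comparison could detect.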
